A study of Homo sapiens with 6 samples.

Results

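Polyamine metabolism was examined through 9 genes: SMOX, ODC1, AMD1, SRM, SMS, SAT1, OAZ1, OAZ2 and AZIN1. A spot was assigned to a gene through the platform's annotation, whose symbols were brought up to date by gene ID, and 6 of the 9 genes had a spot among the 6255 named genes on the array. SAT1 had 2 spots and SMOX, AMD1, SRM, SMS and AZIN1 had 1 each, which gave 7 of the 9169 spots tested. For ODC1, OAZ1 and OAZ2 there was no such spot, and they were not analysed here. The genes were chosen by their role in the pathway and selected on the DN-TRF2 minus GFP control differences of these same arrays, in which SMOX had stood among the lower spots. The differences of the 7 spots between the groups are therefore given as a description, without a p-value.

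The cells were SH-SY5Y, an established human neuroblastoma line with features of immature sympathetic neurons. The 3 GFP control samples carried the pEGF-C2 vector with no insert, and in the 3 DN-TRF2 samples a dominant-negative version of the telomere-binding protein TRF2 was expressed from pIRES2-EGFP, so that vector and insert cannot be told apart. Both groups were kept in geneticin at 500 µg/ml, and RNA was taken 7 days after transfection in 3 independent experiments. Each sample was hybridized as 33P-labelled cDNA from about 5 µg of total RNA to 1 cDNA array, and the deposited array medians ran from 480 to 712 in linear intensity units. TERF2, the gene of TRF2, had no spot, so the labels could not be checked against the targeted gene. In these selected cultures, fewer cells of a type and less RNA per cell cannot be told apart.

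Polyamines are small, positively charged molecules that bind nucleic acids and that growing cells need in quantity. Ornithine decarboxylase makes putrescine, and spermidine synthase and spermine synthase then add aminopropyl groups, which come from S-adenosylmethionine after AMD1 has decarboxylated it. SMOX oxidizes spermine directly back to spermidine and releases hydrogen peroxide, whereas SAT1 acetylates spermidine and spermine for export or further oxidation. Antizymes bind ornithine decarboxylase and send it to the proteasome, and the antizyme inhibitor AZIN1 takes antizyme away from it. In neuroblastoma the pathway is best known through ODC1, a direct target of MYC proteins.

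SMOX, the spermine oxidase gene, was the member with the most distinct difference, and it was lower in the DN-TRF2 samples. This rests on 1 spot, with no further SMOX spot to set beside it. Its deposited intensities were 2878, 2356 and 3429 on GFP control arrays 1, 2 and 3, and 1945, 1940 and 2312 on DN-TRF2 arrays 1, 2 and 3. All DN-TRF2 arrays thus lay below all control arrays in the deposited values, whose scaling is not given and whose medians differed between arrays. On the normalized scale, log2 of intensity plus 50 after quantile normalization, SMOX read 11.60, 11.22 and 11.59 in the controls and 11.12, 10.98 and 11.06 in DN-TRF2. The groups again did not overlap. Control array 2 was the lowest control, and the DN-TRF2 arrays lay close together. Group means were 11.47 ± 0.22 (SD, n = 3) and 11.05 ± 0.073 (SD, n = 3). The difference was -0.42 ± 0.16 (SE from limma's fit over all spots), which is 25.1% less signal on this scale. Taken by replicate number, the SMOX difference was -0.48, -0.24 and -0.53 for numbers 1, 2 and 3.

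**Figure D1:**
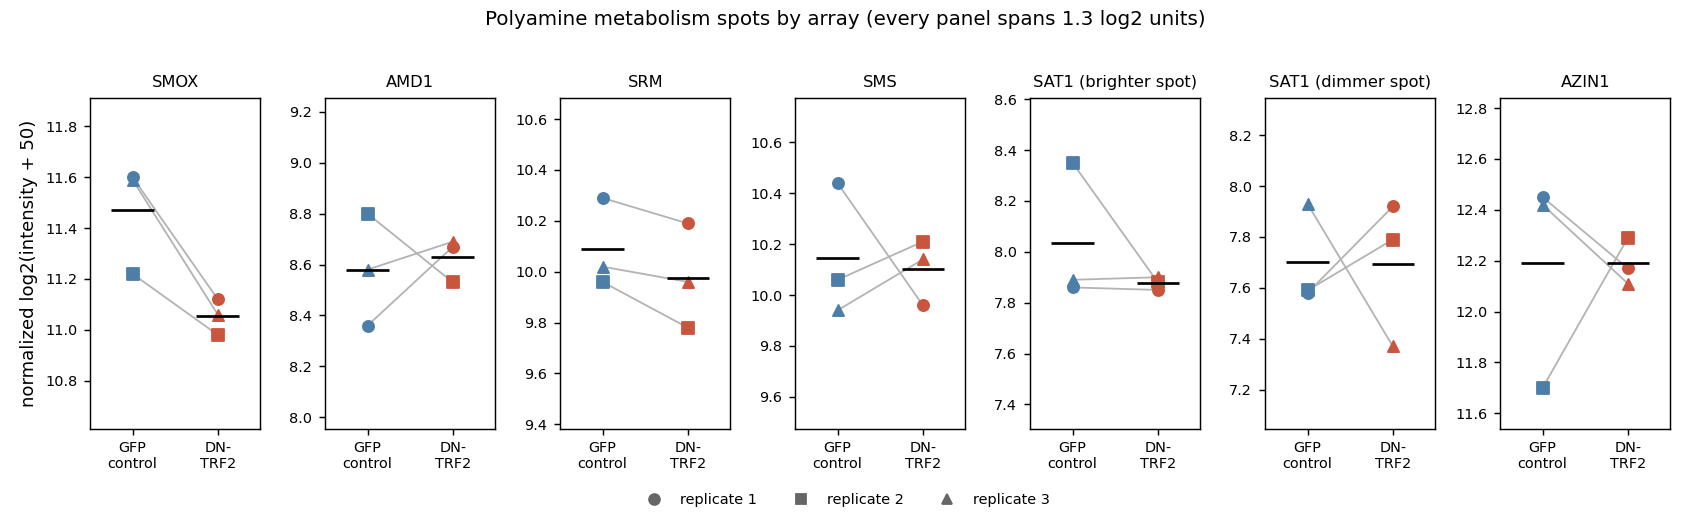
Normalized log2(intensity + 50) of the 7 spots on the 3 GFP control (blue) and 3 DN-TRF2 (red) arrays; symbols mark the replicate number, grey lines join arrays of the same number, black bars are group means, and the y axes start at different levels but all span the same range. SMOX is the spot where the groups do not overlap, with controls from 11.22 to 11.60 and DN-TRF2 arrays from 10.98 to 11.12; at the other spots the groups overlap.

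Groups that do not overlap were common on this array. They were found at 8.70% of all 9169 spots, lower in DN-TRF2 at 4.43%, and here at 1 of the 7 polyamine spots. Because the set was chosen with this contrast known, nothing is read from that count. Among all spots, 90 were lower by more than SMOX, and 303 differed by more in either direction. The median absolute difference over all spots was 0.12 and the 95th percentile 0.37, so SMOX at -0.42 lay in the tail. With limma's test over the whole table, 0 of 9169 spots (0.00%) passed an adjusted p under 0.05, and the smallest adjusted p was 0.999. At an unadjusted p under 0.05 there were 313 spots (3.41%).

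**Figure D2:**
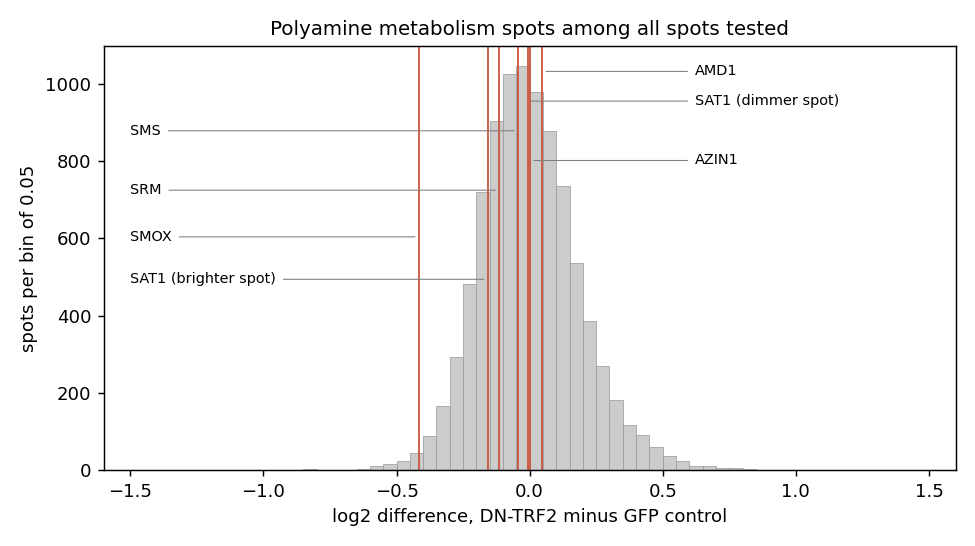
Histogram of the log2 difference, DN-TRF2 minus GFP control, over the 9169 spots tested, with red lines at the 7 polyamine spots. SMOX at -0.42 lies in the lower tail, and the other lines, from -0.16 to 0.048, lie within the central body of the distribution.

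At the spots of the synthesis enzymes the differences were smaller than limma's SEs, which draw on the spread of all spots. AMD1, S-adenosylmethionine decarboxylase, read 8.36, 8.80 and 8.58 in the controls and 8.67, 8.53 and 8.69 in DN-TRF2. The DN-TRF2 values lay inside the control range, and the difference was 0.048 ± 0.16 (SE, n = 3 per group). Its sign changed between replicate numbers, at 0.31, -0.27 and 0.10 for numbers 1, 2 and 3.

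SRM, spermidine synthase, read 10.29, 9.96 and 10.02 in the controls and 10.19, 9.78 and 9.96 in DN-TRF2. It was lower at each replicate number, but by small amounts (-0.11, -0.17 and -0.064), and the groups overlapped. The difference of means was -0.11 ± 0.16 (SE, n = 3 per group), and limma's SE with the replicate number as a block was 0.15. The SD of the 3 differences by replicate number of SRM alone was 0.056, a spread that is not on the footing of these SEs. SRM and SMOX were the 2 spots of the 7 that were lower at all 3 replicate numbers, which held for 14.7% of all spots; nothing is read from this count either.

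SMS, spermine synthase, makes the molecule that SMOX oxidizes. It read 10.44, 10.06 and 9.94 in the controls and 9.96, 10.21 and 10.14 in DN-TRF2, and the groups overlapped. The difference was -0.044 ± 0.17 (SE, n = 3 per group). It averaged a lower value at replicate number 1 (-0.48) with higher values at numbers 2 (0.15) and 3 (0.20).

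A promoter motif is shown for SRM because it carries the site that MYC and MAX bind, the E-box CACGTG, and MYC-network genes were also measured here. In the RefSeq promoter windows (GRCh38.p14, 250 bases before to 50 after a start), 7 of the 9 genes had a window, in 10 windows in all; SMOX and AZIN1 were not in the table. CACGTG, which reads the same on both strands, was found in windows of 2 genes: 1 of 2 for ODC1, which had no spot, and 1 of 1 for SRM. Over all 35116 windows it was found in 7.26%, a share of windows and not of genes. The SRM stretch lies at chr1:11060200-11060229 on the minus strand, with the motif in capitals beginning 199 bases before the start.
SRM: ccggccgggcccCACGTGgcccctggagcg
The match describes letters in the window; binding was not measured.

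SAT1, the acetyltransferase of the second catabolic route, had 2 spots, and they did not follow each other. The brighter spot read 7.86, 8.35 and 7.89 in the controls and 7.85, 7.88 and 7.90 in DN-TRF2. One control array, number 2, stood above the rest, and the remaining 5 arrays lay between 7.85 and 7.90. Its difference was -0.16 ± 0.17 (SE, n = 3 per group), and 0.0020 without that control array.

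The dimmer SAT1 spot read 7.58, 7.59 and 7.93 in the controls and 7.92, 7.79 and 7.37 in DN-TRF2. Here the groups overlapped and the difference was -0.0072 ± 0.18 (SE, n = 3 per group). By replicate number the dimmer spot gave 0.34, 0.20 and -0.56, where the brighter spot gave -0.0059, -0.48 and 0.0079. Across the 6 arrays both spots correlated at -0.263 (Pearson), as a description.

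AZIN1, the antizyme inhibitor and sole measured member of the regulatory branch, read 12.45, 11.70 and 12.42 in the controls and 12.17, 12.29 and 12.11 in DN-TRF2. Control array 2 was far below the other controls, and the DN-TRF2 arrays lay between. The difference of means was 0.0019 ± 0.21 (SE, n = 3 per group). Without control array 2 it was -0.25. A value so near 0 had no settled sign: it was also below 0 without DN-TRF2 array 2 (-0.051) and, with all arrays, under median centring (-0.097), cyclic loess (-0.038) and array weights (-0.18).

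**Figure D3:**
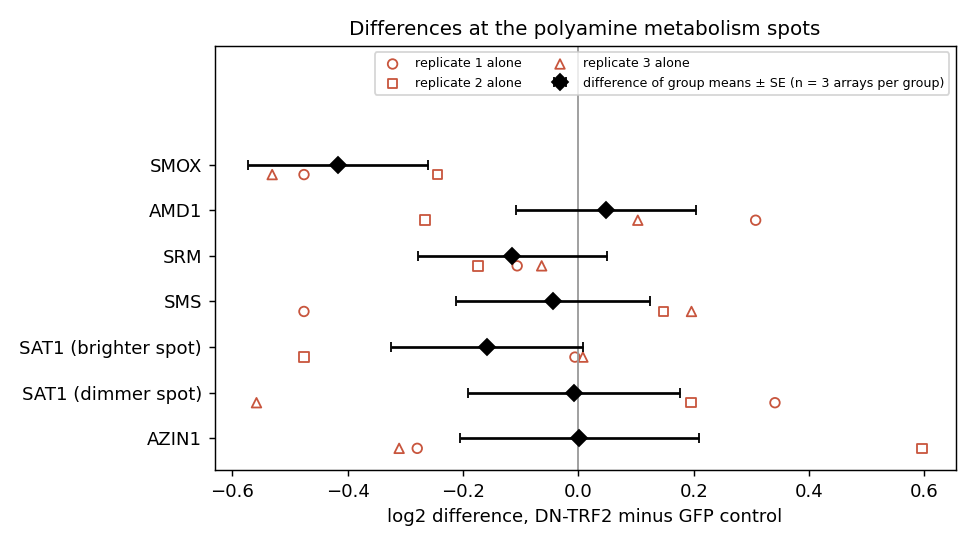
Log2 difference, DN-TRF2 minus GFP control, at each of the 7 spots: black diamonds are differences of group means with SE bars (n = 3 arrays per group), and open red symbols are the differences at replicate numbers 1, 2 and 3. SMOX and SRM have all open symbols below 0; AMD1, SMS, AZIN1 and both SAT1 spots have them on both sides.

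Over the 7 spots, 5 had a lower and 2 a higher mean in DN-TRF2, where 52.7% of all spots had a lower and 47.3% a higher mean. The median difference was -0.044, against -0.011 over all spots. GFP control array 2 was the control that stood apart: it correlated across spots at 0.954 and 0.963 with the other controls, which correlated at 0.980 with each other. It was the lowest control for SMOX, SRM and AZIN1 and the highest for AMD1 and the brighter SAT1 spot. Control SDs were larger than DN-TRF2 SDs at 5 of the 7 spots, and at 78.0% of all spots.

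The spots most like SMOX across the 6 arrays, among 4157 named spots of at least median signal, were those of CD2BP2 (r = 0.963), HNRNPF (0.960), ACTG1 (0.960), ILF2 (0.958) and TUBA1B (0.957). These are Pearson correlations of normalized values over 6 arrays that share the group difference, and 23 of the 4157 spots reached 0.9. Spots picked for likeness to SMOX nearly have to share its direction, so their lower means in DN-TRF2 are no separate result. Differences of the 5 spots ran from -0.19 ± 0.14 for CD2BP2 to -0.56 ± 0.20 for TUBA1B (SE). By gene, lower spots numbered 2 of 2 for CD2BP2, 3 of 4 for HNRNPF and 1 of 1 for ILF2. They were 8 of 9 for ACTG1, which encodes a cytoplasmic actin, and 12 of 13 for TUBA1B, an alpha-tubulin. Each count includes the spot picked for its likeness, and 52.7% of all spots had a lower mean. The picked spots of ACTG1 and HNRNPF are numbers 306 and 312 on the array, and every spot tested from 306 to 312 was lower in DN-TRF2. Elsewhere, as among the first spots in the numbering, neighbouring spots were higher throughout. The part of array position in these likenesses, or in the SMOX difference, was not tested. Within the pathway the correlation with SMOX ran from -0.498 for AMD1 to 0.618 for SRM.

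Genes around the pathway were followed in 8 lists of 103 genes, of which 57 were measured at 85 spots. Of these genes 30 had a higher and 27 a lower mean, with a median of 0.011, and 0 spots passed limma's adjusted test. Over all 6255 named genes 48.0% had a higher and 52.0% a lower mean, and the counts of each list are to be read against these shares. At an unadjusted p under 0.05 there were 5 spots (5.88%, against 3.41% of all spots), 3 higher (2.31% of all spots) and 2 lower (1.10%). The groups did not overlap in 5 genes, AZIN2, PYCR1, CBS, ENOPH1 and SLC12A8, which is 8.77% of the 57 against 8.95% of all named genes with spots averaged.

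Arginine, ornithine and proline genes, which supply and compete for the ornithine that ornithine decarboxylase uses, had 9 of 12 measured members with a higher mean and a median of 0.061. PYCR1, a mitochondrial enzyme of proline synthesis, was the lowest. It read 9.01, 8.91 and 8.92 in the controls and 8.75, 8.46 and 8.52 in DN-TRF2, a difference of -0.37 ± 0.14 (SE, n = 3 per group), with no overlap. The spots on either side of PYCR1 on the array also had lower means, by less, and the part of position was not tested. PYCR3, a cytosolic enzyme of the same step, differed by 0.33 ± 0.28 with overlapping groups. Arginase genes, which release ornithine, were at 0.056 for ARG1 and -0.062 for ARG2, the mean of its 2 spots.

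Methionine cycle and salvage genes provide S-adenosylmethionine and recover the methylthioadenosine that polyamine synthesis leaves behind. Of 14 measured, 6 had a higher and 8 a lower mean, with a median of -0.033. CBS, which draws homocysteine out of the cycle, read 8.56, 8.35 and 8.46 in the controls and 8.19, 8.03 and 8.20 in DN-TRF2 with its 3 spots averaged. All 3 spots were lower, from -0.49 to -0.19, with a mean of -0.32. ENOPH1, an enzyme of the salvage route, read 9.31, 9.38 and 9.61 in the controls and 9.72, 9.92 and 9.68 in DN-TRF2. The ENOPH1 difference was 0.34 ± 0.15 (SE, n = 3 per group) without overlap. MAT2A, which makes S-adenosylmethionine, was at -0.048 over spots that disagreed in sign.

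The hypusine pathway turns spermidine into a modified residue of the translation factor eIF5A, and 3 of its 4 listed genes were measured. DOHH, the hydroxylase of the last step, averaged 0.17 over spots at 0.36 and -0.018. DHPS, the enzyme of the first step, averaged 0.057, and EIF5A itself -0.0015, each over 2 spots of opposite sign.

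In the transport list, 5 of 14 genes were measured. One of them, CHMP1A (0.24), is an endosomal sorting gene that does not belong there; without it 4 of 4 had a higher mean, with a median of 0.058, and the 8 lists together had 29 of 56. SLC12A8, a relative of cation-chloride cotransporters, had the largest difference of the 8 lists. It read 9.72, 9.11 and 9.87 in the controls and 10.33, 10.19 and 10.05 in DN-TRF2, and differed by 0.63 ± 0.20 (SE, n = 3 per group). Its groups did not overlap, and control array 2 was again the farthest out. SLC3A2, the heavy chain of amino acid exchangers, averaged 0.0092 over spots of opposite sign.

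Of the other antizyme-related genes, AZIN2, a second antizyme inhibitor, read 6.48, 6.37 and 6.62 in the controls and 6.85, 6.82 and 6.69 in DN-TRF2. The difference was 0.30 ± 0.14 (SE, n = 3 per group) and the groups did not overlap. The AZIN2 spot was dim, at percentile 5.55 of mean signal over all spots. Other catabolic enzymes were split, with 2 of 4 higher, from SAT2 at -0.030 ± 0.18 to the monoamine oxidase gene MAOA at 0.14 ± 0.21.

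SMOX makes hydrogen peroxide, so enzymes that remove peroxide and superoxide were listed as well. Of 10 measured, 3 had a higher and 7 a lower mean, with a median of -0.013. PRDX4, a peroxiredoxin of the endoplasmic reticulum, was higher at all 3 spots with a mean of 0.16, and TXN, thioredoxin, differed by -0.18 ± 0.25; in both the groups overlapped.

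Regulators of the MYC network had 2 of 8 measured members with a higher mean and a median of -0.062. MXI1 was the highest at 0.041 ± 0.14 (SE, n = 3 per group), and MYC averaged 0.012 over 2 spots. MYCN, the MYC gene amplified in many neuroblastomas, read 8.17, 8.49 and 8.10 in the controls and 8.11, 8.03 and 8.13 in DN-TRF2, a difference of -0.16 ± 0.15 (SE, n = 3 per group). MXD4, a repressor that pairs with MAX, was the lowest at -0.31 ± 0.19, and MAX was lower at all 3 of its spots with a mean of -0.083. In MYCN and MXD4 control array 2 was the highest control and the groups overlapped.

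**Figure D4:**
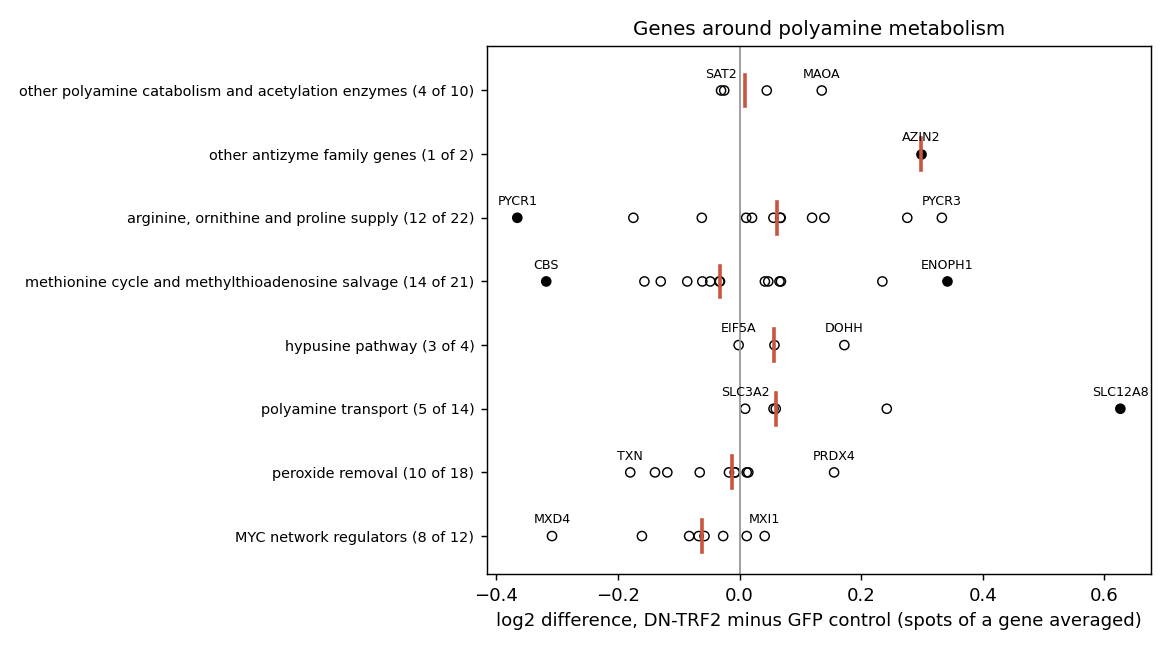
Log2 difference, DN-TRF2 minus GFP control, of each measured gene in the 8 lists around polyamine metabolism, spots of a gene averaged; filled points are genes whose groups do not overlap, red bars are list medians, brackets give genes measured of genes listed, and the lowest and highest gene of each list is named. Medians lie between -0.062 and 0.061 in the lists of several genes, and SLC12A8 at 0.63 is the farthest point.

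The cell label could not be checked by level, since signal cannot be compared between spots of different genes on this array. Of 20 noradrenergic neuroblastoma genes 12 had a spot, among them DBH, CHGA and GATA3, and no marker spot was at the stand-in value on all arrays; HAND2, ISL1 and TH were not analysed here. Differences between the groups were set out for 4 marker lists. They are to be read against the 8.95% of all named genes whose groups did not overlap and the 48.0% with a higher mean. Noradrenergic genes had a higher mean in 7 of 12, from NEFM (-0.27) to GAP43 (0.46), both with overlap, and GATA3 (0.21) did not overlap. Fibroblast and substrate-adherent genes had a higher mean in 6 of 9; TIMP1 (0.68) and S100A6 (0.59) did not overlap, while VIM (-0.20) and THY1 (-0.22) were lower with overlap. Blood genes had a higher mean in 2 of 4, CD14 (0.18) and HBB (0.19), neither with overlap, and liver and epithelial genes in 5 of 8, all with overlap. The HBB spot was dim, at percentile 3.02 of mean signal over all spots. The mean over the fibroblast list ran from 9.07 to 9.39 in the controls and from 9.34 to 9.42 in DN-TRF2. The part of any of these lists in the SMOX difference was not tested.

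**Figure D5:**
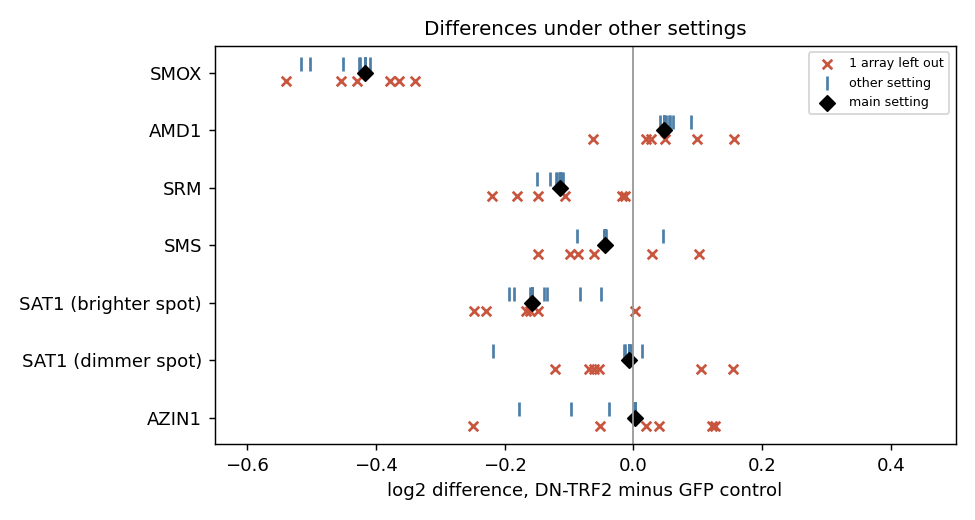
Log2 difference, DN-TRF2 minus GFP control, of the 7 spots in the main setting (diamonds), with 1 array left out (crosses) and under other settings of offset, normalization, filter, weights or blocking (bars). SMOX runs from -0.54 to -0.34 and SRM from -0.22 to -0.013, both below 0 throughout, while the other 5 spots reach both signs.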

How the data were processed

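The authors deposited 1 linear intensity value per spot and array; per the labels' protocols each sample was hybridized in 1 channel with 33P-labelled cDNA. How images were read, background treated or values scaled is not given in the sources used here. Of 9600 spots, 384 blank positions (each 25th) and 47 further spots at the stand-in value 10 on all arrays were left out. Symbols were updated by gene ID, and 8493 of 8517 annotated spots matched. Signal of different spots of 1 gene correlated at 0.138 over 1481 genes, so levels were compared within a spot. Whether each spot reports the gene it is annotated to was not tested, and SMOX had only 1 spot.

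Values were taken as log2(intensity + 50) and quantile-normalized between arrays. All spots were fitted with limma 3.58.1 in R 4.3.3 (lmFit, eBayes, two-sided, Benjamini-Hochberg, threshold 0.05), checked on simulated data. Precision is limited by the number of arrays: the median SE of a difference was 0.17. Named genes were all members, the extremes of each list and the 5 spots most like SMOX; genes such as MYC, ARG1 and MAT2A were named for their role after their values were seen. Members and lists were chosen with earlier results of these data known. Deviations of same-numbered arrays correlated at 0.390, 0.296 and 0.246, so numbers were taken to pair the samples, with that basis in the data and in the 3 experiments of the labels.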

Additional observations from a re-analysis of the deposited data

How the results depend on the processing

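SMOX kept its sign under all 17 alternatives, with a low of -0.54 (without GFP control replicate 2) and a high of -0.34 (GFP control replicate 1 left out). Groups that do not overlap keep their sign when 1 array is left out, so this is no sign of stability. The replicate block, the changed eBayes options and the filter on median signal cannot move a difference. They say nothing about its sign either. SRM kept its sign too, from -0.22 without DN-TRF2 replicate 1 to -0.013 without GFP control replicate 1. The sign turned for AMD1 in 1 of 16 alternatives, SMS in 3 of 17, the brighter SAT1 spot in 1 of 16, the dimmer in 3 of 16 and AZIN1 in 5 of 17. The count of 5 lower spots was 3, of 4 spots left, without spots below median signal, and ran from 4 to 6 with 1 array left out. With the replicate number as a block, the SMOX difference was -0.42 by construction, since the design is balanced. Its SE was 0.150 with the block and 0.155 without. With the block 0 spots passed and 527 had an unadjusted p under 0.05, so it changed no call. Passing spots numbered 0 with each array left out and 1 with an offset of 1, a spot of BOP1 (adjusted p = 0.0340 by limma, named after its value was seen). The BOP1 spot differed by 2.73 with that offset and by 0.24 in the main setting. The count of passing spots was 0 under every other alternative run. The 313 spots of unadjusted p under 0.05 became 503 without the filter, 583 with array weights, 115 without spots below median signal, 792 and 655 without GFP control replicates 2 and 3, and 141 and 154 without DN-TRF2 replicates 2 and 3. The median difference of all spots, -0.011, was farthest off under median centring, at -0.033. Signal over background could not be measured, because blank positions hold the stand-in value.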
